A study of Mus musculus with 6 samples.

Results

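Transcript levels were examined for 46 genes of the spliceosome and of splicing control in tumour-infiltrating CD8+ T cells with and without a guide against Elovl1. The genes were taken as a list of names: 7 Sm core proteins, 4 proteins of the U1 particle, 11 of the U2 particle and U2AF, 7 of the tri-snRNP and the Prp19 complex, 10 SR and Tra2 proteins, 2 CLK kinases, 4 SR-related proteins of nuclear speckles and the helicase Ddx5. The list was drawn up with earlier results of these data known. All 46 were found among the 55471 gene identifiers, and all 46 were among the 12546 genes that passed the count filter and were tested. RNA was sequenced from OT-I cells, which carry a T cell receptor for an ovalbumin peptide, with a Cas9 knock-in. All were transduced with a lentiviral vector that held the guide and the surface marker CD90.1. The recipients bore KPC_OVA tumours, an ovalbumin-expressing pancreatic line grown in the pancreas, and all received anti-PD-1 from the day after transfer. CD90.1+ cells were sorted from the primary tumour 7 days after transfer. Elovl1 was targeted in 3 libraries (sgElovl1), and the other 3 carried a non-targeting guide (sgNT). The comparison asked which transcripts differ once this elongase of very long-chain fatty acids is targeted. The labels give no age for the mice. The deposited tables of sgElovl1 replicates 1 and 2 are named as mixes of 2 tumours each, and each was counted as 1 sample, so p-values measure the spread between these samples.

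Splicing removes introns from precursor messenger RNA. The spliceosome is assembled on each intron from small nuclear ribonucleoproteins (snRNPs): U1 pairs with the 5′ splice site, U2AF and U2 recognise the 3′ splice site and the branch point, and the U4/U6.U5 tri-snRNP joins before the Prp19 complex helps to activate the catalytic centre. Rings of Sm proteins surround the U1, U2, U4 and U5 RNAs. SR proteins bind exons and recruit these particles through tails rich in arginine and serine, CLK kinases phosphorylate those tails, and Son and Srrm2 form the core of nuclear speckles where such factors are stored. Many SR protein and CLK genes hold back introns or include poison exons in their own transcripts, and activated T cells change the splicing of receptors such as CD45 as they differentiate.

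The libraries held 21980273 to 26165380 expected counts (estimated read pairs per gene summed over all genes). Genes with a count numbered 18633, 17896 and 17282 in sgElovl1 and 16152, 15595 and 17010 in sgNT replicates 1 to 3, without overlap. Elovl1 was at 81.5, 76.6 and 95.4 CPM in sgElovl1 replicates 1 to 3 and at 283, 280 and 255 CPM in sgNT replicates 1 to 3 (CPM, counts scaled by TMM to a library of 1000000, the level used unless TPM is named), a log2 fold change of -1.69 (SE 0.12, edgeR adjusted p = 8.71e-05). All 8 CD8 T cell markers were tested, and their summed level was 9253 to 10548 CPM in sgElovl1 and 11451 to 12001 CPM in sgNT libraries. Cd8a (-0.45) and Cd8b1 (-0.49) were lower and Cd3e (0.40) was higher, with 7 of 8 below 0 (with the replicate block described below, Cd3e was not called, edgeR adjusted p = 0.0614). Of 12 macrophage and monocyte markers, 11 were tested, 10 were above 0 and 3 were higher in sgElovl1 (9 with the replicate block), with sums of 1169 to 1551 against 634 to 1258 CPM and Adgre1 at 0 counts in the sgNT libraries. Most of that sum was Ly6c2, and without it the markers held 101, 164 and 325 CPM in sgElovl1 and 42.5, 60.4 and 72.7 CPM in sgNT replicates 1 to 3, without overlap. That sum and Lyz2 were chosen after their values were seen, and Lyz2 was at 53.7, 77.3 and 159 against 1.06, 8.62 and 14.0 CPM (edgeR adjusted p = 0.0958, and 0.0116 with the block). Tumour epithelium and acinar markers summed to 42.0 to 312 CPM in sgElovl1 and 61.6 to 948 CPM in sgNT libraries, highest in the third library of both groups, which a second principal component (29.1% of variance) also set apart. None of 6 fibroblast markers passed the filter, Lum and Pdgfra being at 0 in every library, and 1 of 6 B cell and dendritic cell markers did. The part of other cells in the results on splicing genes was not tested, and in bulk RNA fewer cells of a type and less RNA per cell cannot be told apart.

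Of the 46 genes, 7 were higher and 2 were lower in sgElovl1 cells, and 37 did not pass the test (edgeR's quasi-likelihood test, Benjamini-Hochberg adjusted p under 0.05 over all genes tested). The genes that rose were Snrpg, Snrnp70, Sf3b1, Sf3b3, Srsf1, Srrm2 and Pnn, and those that fell were Snrpd3 and Prpf19. Over all 12546 genes the same test called 8.64% higher and 5.13% lower, against 15.2% and 4.35% of the 46. In either direction the shares were 13.8% and 19.6%. Because the list was chosen with earlier results known, these shares describe it and are not an independent test. The median log2 fold change of the 46 was 0.07, with 25 above and 21 below 0, and that of all genes was -0.0041. Levels did not overlap between the groups for 17 of the 46 (37.0%), 13 of them higher and 4 lower in sgElovl1. Over all genes tested the share was 37.1%, with 19.4% higher and 17.7% lower. The list therefore moved in both directions. Its share without overlap in either direction was near that of the whole transcriptome, but more of its genes without overlap were higher than lower.

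**Figure D1:**
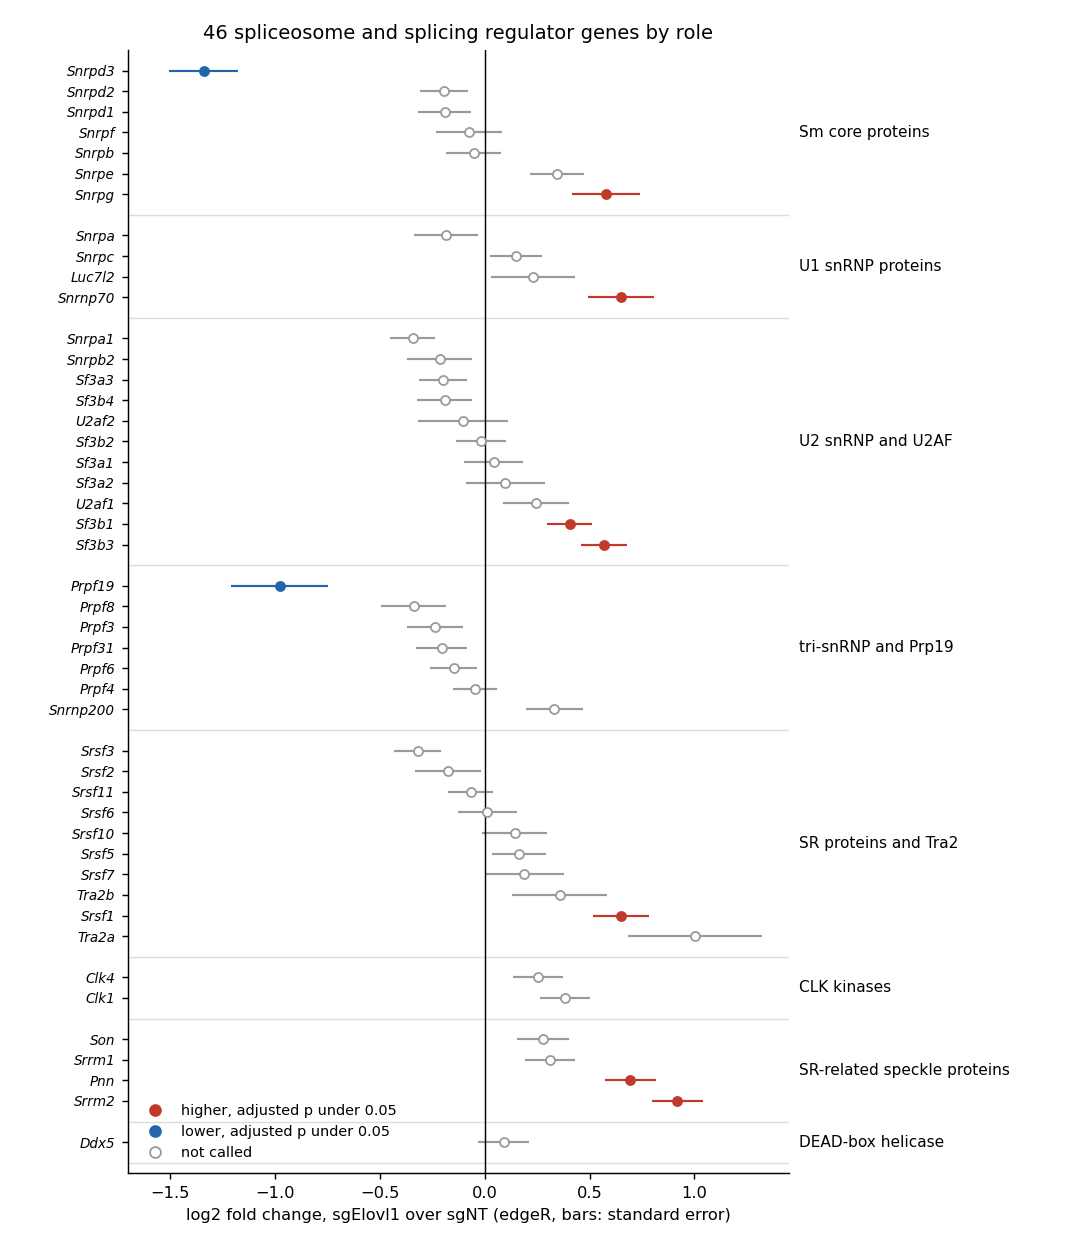
Log2 fold change of each of the 46 genes (x axis, sgElovl1 over sgNT, 3 libraries per group), grouped by role, with the standard error of the edgeR fit as bars. Filled points mark the 7 genes called higher and the 2 called lower; the 4 speckle proteins all lie above 0, and 6 of the 7 genes of the tri-snRNP and Prp19 group lie below it.

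Snrpd3, Pnn and Srrm2 were called in all 6 fits that left out 1 library. The other 6 calls rested on single libraries. Without sgElovl1 replicate 2 the edgeR adjusted p was 0.145 for Prpf19, 0.117 for Snrnp70, 0.142 for Sf3b1, 0.0714 for Sf3b3 and 0.0778 for Srsf1, and without sgElovl1 replicate 1 it was 0.156 for Snrpg. Leaving out sgElovl1 replicate 1 gave 3 higher and 2 lower calls among the 46, and leaving out sgElovl1 replicate 2 gave 2 and 1. The counts were 8 and 3 when sgElovl1 replicate 3 was dropped. For sgNT replicates 1, 2 and 3 in turn they were 5 and 1, 3 and 1, and 5 and 2. With the third library of both groups left out, 12 were higher and 7 lower, where 1947 and 2039 of all genes were.

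A first readout apart from the level was the sequence of the coding regions. SR and SR-related proteins were put in the list by name. Its share of genes rich in arginine and serine codons was therefore high by choice. Adjoining codons for arginine (CGN, AGA or AGG) and serine (TCN, AGT or AGC), in either order and read in frame on the coding strand, were counted in the longest complete coding transcript of each gene in GENCODE M21. Of the 46 genes, 16 (34.8%) held 20 or more such pairs, as did 3.36% of the 11134 tested coding genes. Among the 16, Srsf1, Snrnp70, Srrm2 and Pnn were higher, none was lower (Srsf3 was with DESeq2) and 13 were above 0, with a median log2 fold change of 0.26. Among the other 30, 3 were higher and 2 lower, with 12 above 0 and a median of -0.06. Snrnp70, with 21 pairs, was the called gene nearest the minimum of 20, a value chosen after the fold changes were seen.

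The stretches of 66 bases with the most pairs are shown for the 4 arginine-serine genes that rose, beside the stretch of Snrpd3 with the most arginine-glycine pairs (arginine codons beside GGN), which encodes part of the tail that is methylated in Sm proteins. Capitals mark the codons of pairs, and each line reads 5′ to 3′ on the gene's own strand from GENCODE M21 transcripts on GRCm38 (mm10).
Srrm2: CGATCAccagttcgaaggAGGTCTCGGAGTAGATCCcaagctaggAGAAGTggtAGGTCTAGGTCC
Pnn: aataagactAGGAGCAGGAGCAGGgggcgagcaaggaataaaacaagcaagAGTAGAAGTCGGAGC
Srsf1: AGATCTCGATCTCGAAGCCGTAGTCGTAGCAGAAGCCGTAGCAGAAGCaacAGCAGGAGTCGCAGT
Snrnp70: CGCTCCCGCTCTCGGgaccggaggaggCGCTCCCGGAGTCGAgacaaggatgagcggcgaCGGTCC
Snrpd3: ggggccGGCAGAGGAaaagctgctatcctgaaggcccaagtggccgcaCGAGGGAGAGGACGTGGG
The Srrm2 window lies in exon 11 of 15 (chr17:23815968-23816033, plus strand) and holds 10 of the 318 pairs of its 2703 codons. That of Pnn lies in exon 9 of 9 (chr12:59072325-59072390, plus strand) and holds 8 of 28 pairs. The Srsf1 window, in exon 4 of 5 (chr11:88049469-88049534, plus strand), is the densest of the 4, with 19 of 30 pairs. The Snrnp70 window, in exon 10 of 10 (chr7:45377113-45377178, minus strand), holds 9 of 21. The Snrpd3 window runs from exon 3 into exon 4 of 4 (chr10:75532330-75535286, plus strand, with the intron left out) and holds 7 of its 12 arginine-glycine pairs. At least 12 such pairs were found in 7 of the 46 genes (15.2%) and in 5.98% of tested coding genes. This minimum equals the count of Snrpd3 itself, so Snrpd3 meets it by definition. Among the Sm proteins, Snrpb (15 pairs) and Snrpd1 (19 pairs) share this feature, and their log2 fold changes were -0.05 and -0.19, neither past the test (edgeR adjusted p = 0.817 and 0.309).

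**Figure D2:**
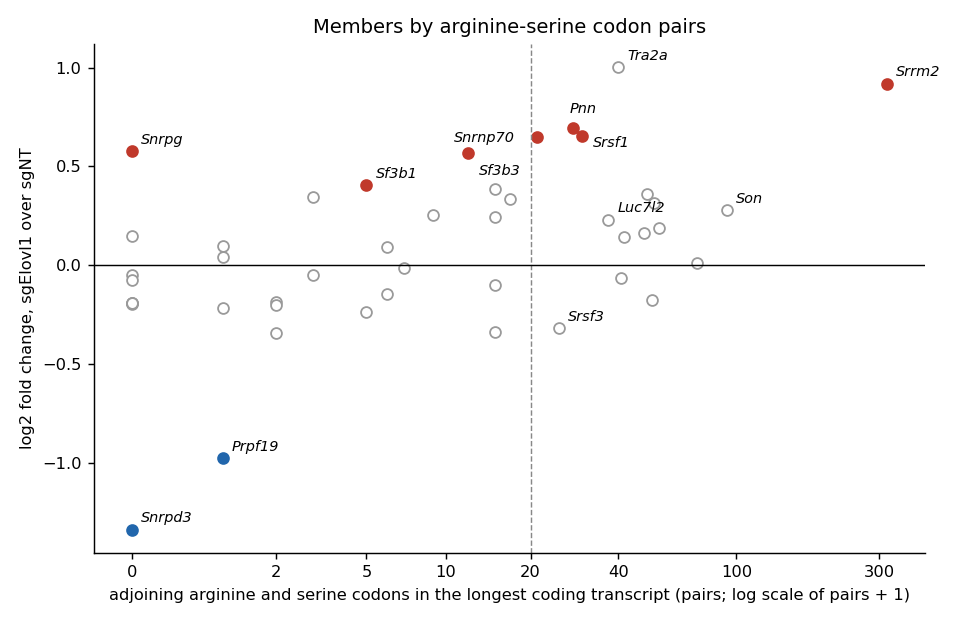
Log2 fold change of each of the 46 genes (y axis, sgElovl1 over sgNT) against its number of arginine-serine codon pairs (x axis, log scale of pairs + 1). Filled points are called genes, the dashed line marks 20 pairs, and the 2 called lower, Snrpd3 with 0 pairs and Prpf19 with 1, lie to its left.

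At the other minimums, 47.8% of the 46 and 14.2% of tested coding genes held at least 10 pairs, and 23.9% and 0.611% held at least 40. Over the whole transcriptome, 104 of the 374 tested genes with 20 or more pairs were higher (27.8%) and 2 were lower (0.535%), with a median log2 fold change of 0.42. The 358 of them outside the list gave 27.9% higher, so the 25.0% seen among the 16 was close to the share in other genes of this kind. With a minimum of 10 pairs 21.9% of 1577 genes were higher, and with a minimum of 40, 36.8% of 68. In the longest quintile of genes 29.9% of 211 with the minimum of 20 and 17.2% of 2145 below it were higher, and in the other quintiles 25.2% of 163 and 5.08% of 8615 were. After the length offset described below, 64 of the 374 genes were higher and 6 lower, and the median log2 fold change was 0.22 for them and -0.04 for the 10760 genes below the minimum.

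Among the Sm core proteins, 1 gene fell, 1 rose and 5 did not pass, with a median log2 fold change of -0.08. Snrpd3, which encodes SmD3 (chr10:75517551-75537381), was at 65.9, 43.8 and 67.9 CPM in sgElovl1 and at 135, 158 and 156 CPM in sgNT replicates 1 to 3. The highest sgElovl1 library was far below the lowest sgNT library. The log2 fold change was -1.34 (SE 0.16, edgeR adjusted p = 0.0016, at most 0.0216 with any 1 library left out). Snrpd3 shares 232 exonic bases with Gucd1 on the opposite strand, and Gucd1 was at 30.3 and 31.5 CPM (log2 fold change -0.06). Snrpg (chr6:86371304-86379328), which encodes SmG, was at 111, 89.2 and 82.4 CPM in sgElovl1 and 70.2, 49.3 and 69.8 CPM in sgNT libraries. The groups did not overlap, and the log2 fold change was 0.58 (SE 0.16, edgeR adjusted p = 0.0389). Snrpe, encoding SmE, had the highest TPM (length-scaled level) of the uncalled Sm genes and was at 147, 123 and 125 against 100, 92.4 and 118 CPM (0.34, SE 0.13, edgeR adjusted p = 0.0927). The remaining 4, Snrpb, Snrpd1, Snrpd2 and Snrpf, lay between -0.19 and -0.05 on the log2 scale. The ring proteins, which assemble in equal number, thus did not share 1 direction at the transcript level.

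Of the 4 proteins of U1, 1 gene rose and 3 did not pass. Snrnp70 (chr7:45376453-45395742) encodes U1-70K, which binds a stem-loop of U1 RNA and contacts SR proteins. It was at 112, 100 and 73.4 CPM in sgElovl1 and 67.7, 57.0 and 57.6 CPM in sgNT replicates 1 to 3, without overlap. The log2 fold change was 0.65 (SE 0.16, edgeR adjusted p = 0.0223), and the call was kept in 1 of the 6 fits without a library. Snrpc, encoding U1-C, had the highest TPM of the other 3, at 137, 128 and 104 against 107, 112 and 115 CPM, and the groups overlapped (0.15, SE 0.12, edgeR adjusted p = 0.436). Snrpa was at -0.18 and the U1-associated alternative splicing factor Luc7l2 at 0.23, and neither passed.

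In the U2 particle and U2AF, both called genes belong to SF3b, the part of U2 that holds the branch point. Sf3b1 (chr1:54985169-55027481), its largest subunit, was at 494, 503 and 500 CPM in sgElovl1 and 380, 386 and 364 CPM in sgNT libraries. This was a small difference with little spread: the log2 fold change was 0.41 (SE 0.11, edgeR adjusted p = 0.0305). Sf3b3 (chr8:110810239-110846787), a scaffold of SF3b, was at 156, 164 and 151 against 96.7, 111 and 110 CPM (0.57, SE 0.11, edgeR adjusted p = 0.00923). Sf3b3 shares 188 exonic bases with Cog4 on the opposite strand, which was at -0.07. The other SF3b genes of the list, Sf3b2 (-0.02) and Sf3b4 (-0.19), did not pass, nor did the 3 SF3a genes, at 0.04, 0.10 and -0.20. Snrpa1, which encodes a U2-specific protein and had the highest TPM of the uncalled genes, was at 123, 132 and 144 against 165, 177 and 164 CPM (-0.34, SE 0.11, edgeR adjusted p = 0.0575). Its groups did not overlap, with the sgElovl1 libraries lower, and it passed with DESeq2. U2af1 and U2af2, the subunits that recognise the 3′ splice site, were at 0.24 and -0.10. The 11 genes had 5 values above and 6 below 0, with a median of -0.02.

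The tri-snRNP and Prp19 genes were mostly lower without passing the test. Of the 7, 6 had log2 fold changes below 0 (4 of 7 where TPM was used in place of counts), 1 was called lower and the median was -0.20. Prpf19 (chr19:10895231-10909559), the ubiquitin ligase of the Prp19 complex, was at 26.9, 18.7 and 17.7 CPM in sgElovl1 and 52.0, 43.0 and 29.6 CPM in sgNT replicates 1 to 3. The groups did not overlap, but sgNT replicate 3 lay close to sgElovl1 replicate 1. The log2 fold change was -0.98 (SE 0.23, edgeR adjusted p = 0.0291), kept in 2 of the 6 fits without a library. Prpf31, a U4/U6 protein with the highest TPM of the rest, was at 102, 119 and 126 against 127, 146 and 125 CPM (-0.20, SE 0.12, edgeR adjusted p = 0.266). Snrnp200, the helicase that unwinds U4 from U6, was the 1 gene above 0 (0.33, edgeR adjusted p = 0.119). Prpf8, at the heart of the catalytic centre, was at -0.34 (edgeR adjusted p = 0.152).

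Of the 10 SR and Tra2 genes, 1 rose and 9 did not pass, 7 lying above 0 with a median of 0.15. Srsf1 (chr11:88047373-88053755), a prototype of the SR proteins, was at 120, 122 and 103 CPM in sgElovl1 and 85.7, 69.4 and 64.7 CPM in sgNT libraries. The groups did not overlap, and the log2 fold change was 0.65 (SE 0.13, edgeR adjusted p = 0.0125), kept in 3 of the 6 fits without a library. Srsf7, the uncalled gene of highest TPM, was at 471, 498 and 696 against 586, 494 and 381 CPM, and its libraries overlapped widely (0.19, SE 0.19, edgeR adjusted p = 0.523). Tra2a, an activator of exon inclusion, was chosen after its values were seen because it had the largest log2 fold change of the 46. It was at 44.0, 41.2 and 31.6 CPM in sgElovl1 and 29.0, 17.4 and 12.003 CPM in sgNT libraries, without overlap, a log2 fold change of 1.00 with a wide error (SE 0.32, edgeR adjusted p = 0.0855). With the replicate block, in which same-numbered libraries are compared though the titles state no pairing, its edgeR adjusted p was 0.00736. In that fit 8 of the 46 were called higher and 2 lower, Tra2a being the 1 gene gained. Its paralogue Tra2b was at 0.36 (edgeR adjusted p = 0.31). Srsf3 was the lowest of the group, at 484, 453 and 430 against 570, 587 and 549 CPM (-0.32, edgeR adjusted p = 0.0762). The remaining 5, Srsf2, Srsf5, Srsf6, Srsf10 and Srsf11, lay between -0.18 and 0.17.

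The CLK kinase genes were not called, though neither overlapped between the groups. Clk1 was at 358, 331 and 359 CPM in sgElovl1 and 289, 231 and 283 CPM in sgNT libraries, with a log2 fold change of 0.38 (SE 0.12, edgeR adjusted p = 0.0574), and it passed with DESeq2. Clk4 was at 119, 119 and 141 against 108, 96.8 and 113 CPM (0.25, SE 0.12, edgeR adjusted p = 0.169).

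Of the 4 SR-related proteins of speckles, 2 rose and all 4 were above 0, with a median log2 fold change of 0.50 (3 of 4 above 0 after the length offset). Srrm2 (chr17:23790532-23824741), the speckle scaffold, was at 264, 234 and 225 CPM in sgElovl1 and 141, 113 and 129 CPM in sgNT libraries. The lowest sgElovl1 library was far above the highest sgNT library, and the log2 fold change was 0.92 (SE 0.12, edgeR adjusted p = 0.00187, at most 0.022 with any 1 library left out). Pnn (chr12:59066884-59073998), a speckle and exon junction associated protein, was at 108, 108 and 113 against 77.7, 60.4 and 65.2 CPM (0.69, SE 0.12, edgeR adjusted p = 0.00588, at most 0.0397). Srrm1, a splicing coactivator and the uncalled gene of highest TPM, was at 96.2, 106 and 111 against 94.3, 76.9 and 80.8 CPM (0.31, SE 0.12, edgeR adjusted p = 0.0998). Its lowest sgElovl1 library was just above its highest sgNT library. Son, the other speckle core protein, overlapped between the groups (0.28, edgeR adjusted p = 0.146). Ddx5, an RNA helicase that takes part in splicing and transcription, was at 601, 536 and 503 against 533, 541 and 467 CPM and overlapped as well (0.09, edgeR adjusted p = 0.644).

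**Figure D3:**
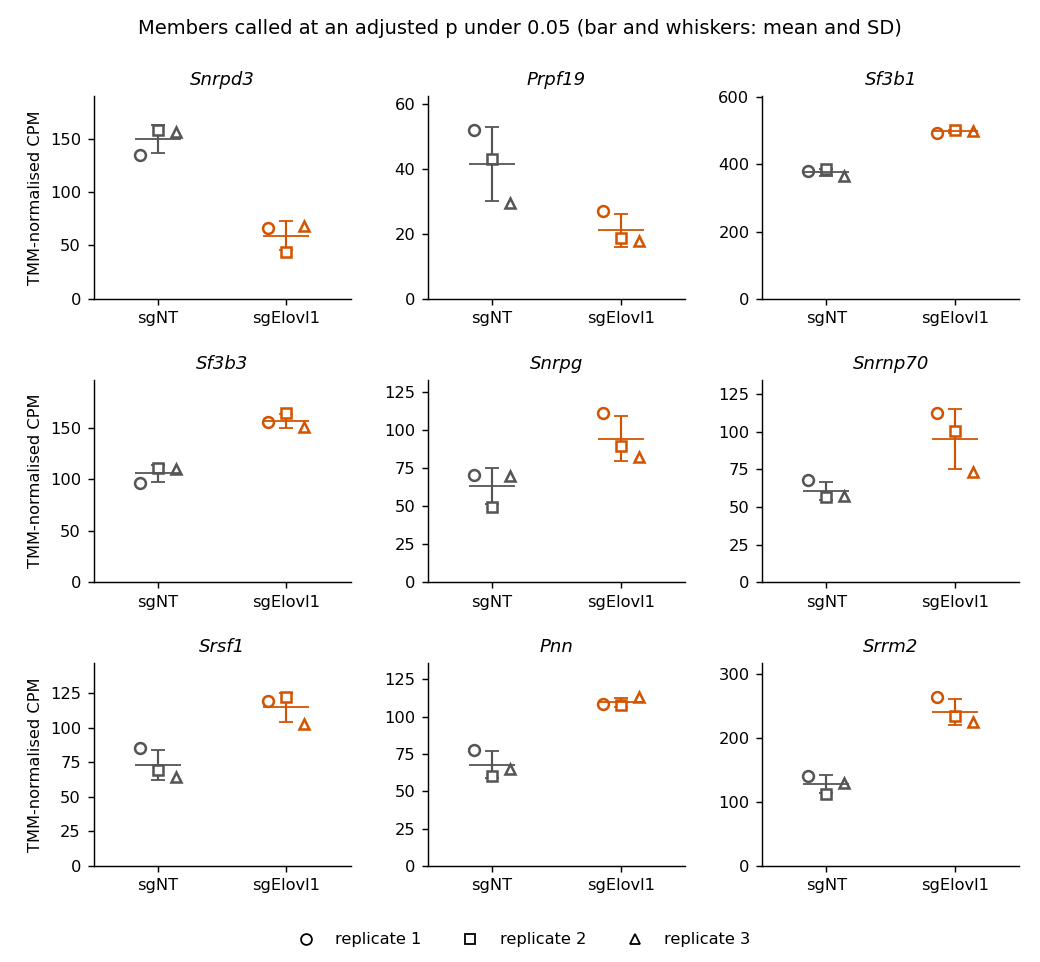
Levels (y axis, TMM-normalised CPM) of the 9 called genes in the 3 sgNT and 3 sgElovl1 libraries; symbols give the replicate number, and lines and bars the mean and SD. No gene overlaps between the groups, with Snrpd3 below 70 CPM in every sgElovl1 and above 130 CPM in every sgNT library. In CPM the gap of Prpf19 is the narrowest, and relative to its level that of Snrnp70 is about as narrow.

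Summed per length, the speckle proteins held 480, 461 and 439 TPM in sgElovl1 and 348, 292 and 284 TPM in sgNT replicates 1 to 3. The CLK kinases held 326, 318 and 331 against 263, 234 and 251 TPM. These were the roles whose sums did not overlap between the groups, at 1.49 and 1.303 times the sgNT mean. The Sm core held 2025, 1855 and 1617 against 1525, 1589 and 1644 TPM, a ratio of 1.16 that turned to 0.928 in CPM with TMM factors and to 0.995 in CPM without them. Sums of the U1, U2, tri-snRNP, SR and Ddx5 groups overlapped, with ratios of 1.07, 1.06, 0.893, 1.09 and 1.15. All 46 genes together held 5815 to 6347 TPM in sgElovl1 and 5050 to 5616 TPM in sgNT libraries. Snrpe, Snrpb and Srsf7 had the highest mean TPM in sgElovl1 cells (655, 537 and 509), and the level of Prpf8 was the lowest (4.46 TPM).

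Fold changes differed with the length of genes. The median log2 fold change ran from -0.09 in the shortest quintile of genes to 0.32 in the longest, where 19.2% were called higher, against 3.59% in the shortest. Of the 46 genes, 9, 12, 13, 3 and 9 lay in the quintiles from shortest to longest. With an offset that removed each library's trend on length, 5.75% of all genes were higher and 3.48% lower, and 7 and 3 of the 46 were. Snrpg, Snrnp70, Srsf1, Srrm2, Pnn and Snrpd3 were still called. Sf3b1 (log2 fold change 0.08, adjusted p = 0.638), Sf3b3 (0.33, adjusted p = 0.0634) and Prpf19 (-0.87, adjusted p = 0.055) were not in this edgeR fit. Clk1, Srrm1, Prpf8 and Srsf3 were called instead, the first pair higher and the second pair lower. The offset used the weighted transcript length, a mean of 1044 bases for Srrm2 where its longest coding transcript has 8864, so that this gene was treated as a short one and its value with the offset is not informative.

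A second readout apart from the level was the mean length of each gene's transcripts, weighted by their estimated share, which changes when the mix of isoforms changes. Lengths did not overlap between the groups for 22 of the 45 genes tested (48.9%), 10 longer and 12 shorter in sgElovl1. Over all 10401 genes tested 20.4% did not overlap, 9.7% longer and 10.7% shorter. Among genes with 5 or more annotated transcripts, the share was 56.2% of 32 in the list and 21.1% of 6554 in all. Neither comparison was matched for the level of the genes. None of the 45 passed limma's test at an adjusted p under 0.05 (0.327% of all genes did, among them 2 that had no counts in sgNT libraries), while 19 had an unadjusted p under 0.05 (42.2%, against 13.9% of all genes). With a mean of at least 100 counts, with the effective length and with the replicate block none of the list passed either. Without sgNT replicate 3, Luc7l2 and Srrm2 passed (limma adjusted p = 0.0439 and 0.0416), and without sgNT replicate 1, Clk1 did (0.0476).

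Luc7l2 had the largest shift, and it and the next genes were chosen after their values were seen. Its weighted length was 2074, 2018 and 2033 bases in sgElovl1 and 2832, 2977 and 2617 bases in sgNT libraries, a log2 ratio of -0.46 (SE 0.05, limma adjusted p = 0.0668), while its level did not pass. Sf3b1 was shorter, at 4297, 4563 and 4363 against 4828, 5124 and 4970 bases, where its 1 annotated coding transcript has 6195 bases and its 5 retained intron transcripts 628 to 3589. Srsf1 was shorter too, at 2061, 2008 and 2125 against 2202, 2392 and 2371 bases. Snrnp70 was longer, at 1555, 1564 and 1278 against 1211, 1133 and 1116 bases, and it has 9 annotated retained intron transcripts of up to 4008 bases beside 5 coding ones of up to 1735. Srrm2 was at 1117, 1107 and 1093 against 947, 952 and 1049 bases, far under its longest coding transcript of 8864 bases, so that short annotated transcripts carried most of the weight in every library. Snrpd3, whose level fell, was also shorter, at 2128, 2420 and 2335 against 2505, 2684 and 2696 bases. The shifts thus went both ways among genes that rose. The tables give no value per transcript, so which isoforms changed was not analysed here.

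**Figure D4:**
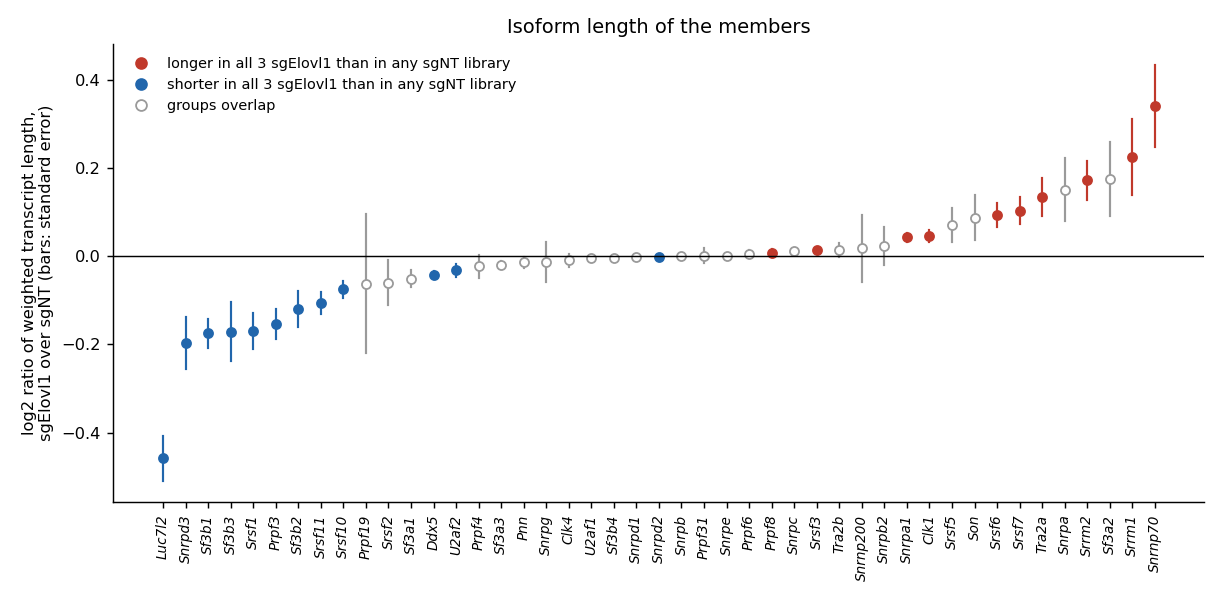
Log2 ratio of the weighted transcript length of 45 genes (y axis, sgElovl1 over sgNT, bars the standard error of the limma fit), ordered by value. Coloured points mark genes whose 3 sgElovl1 lengths all lie above (10) or below (12) the sgNT lengths; Luc7l2 lies at one end and Snrnp70 at the other.

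Retained introns are annotated in 41 of the 46 genes and transcripts subject to nonsense-mediated decay in 27. Of the 20 genes with 3 or more retained intron transcripts, 4 were higher and 1 was lower, with a median log2 fold change of 0.24. Of the other 26, 3 were higher and 1 was lower, with a median of -0.05. Neither annotation was counted over all genes tested, so these counts describe the list only. The difference between these sets of genes was not tested. Their overlap with the genes rich in arginine and serine codons was not tested either.

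The list was set against intronic RNA, measured by non-coding gene models that lie inside an intron of a coding gene without touching its exons. Reads of unspliced host RNA and of a transcript of its own cannot be told apart for a model on the host's strand. The strand setting of the quantification is not given in the sources used here. Whether opposite-strand models also hold host reads was therefore not tested. All 1886 such same-strand models together held 0.0709, 0.0586 and 0.0514% of expected counts in sgElovl1 and 0.0253, 0.0132 and 0.0139% in sgNT replicates 1 to 3. The shares did not overlap and their means stood at a ratio of 3.46 (exact permutation test, two-sided, p = 0.1, the smallest that 3 against 3 allows). For the 985 opposite-strand models the ratio was 1.80. Single models had few counts, and 168 same-strand models passed the filter, 119 of them with the filter's minimum in every sgElovl1 but not in every sgNT library and 0 the other way round. These 119 fell below that minimum in at least 1 sgNT library, so the filter favoured models that were higher in sgElovl1. The calls thus describe the models that passed and not all 1886. Of the 168, 72 were higher (42.9%, against 8.64% of all genes tested), 54 of them among the 119. None was lower (0 at an unadjusted p under 0.05 as well, and 0 with DESeq2 and limma-voom). The median log2 fold change was 1.93. Among the 39 with the minimum in every library, 18 were higher. Without the filter, 102 of 931 same-strand models were higher and 0 lower. In that fit 1236 of the 12546 genes past the filter were higher. Of 39 tested opposite-strand models 9 were higher and 0 lower, and of 28 of the sense_intronic biotype 11 and 0, most of them past the minimum in every sgElovl1 but not every sgNT library as well. The call count of the models fell to 26 without sgElovl1 replicate 1, 24 without sgElovl1 replicate 2 and 30 without sgNT replicate 2.

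The largest calls by p were C230085N15Rik in Satb1, Gm37531 in Fam117b and Gm47586 in 2010111I01Rik. C230085N15Rik was at 20.9, 17.4 and 20.6 CPM in sgElovl1 and 2.39, 0.897 and 1.24 CPM in sgNT libraries (log2 fold change 3.70, SE 0.31, edgeR adjusted p = 0.000449). Gm37531 rose by 3.26 and Gm47586 by 2.09 on the log2 scale (edgeR adjusted p = 0.000481 and 0.00134), and all 3 were called in every fit without a library. Of the 61 coding hosts of called models, 21 were higher (34.4%, against 8.64% of all genes tested). Of the rest, 1 was lower (1.64%, against 5.13%) and 39 did not pass. The hosts had a median of 0.25. They were picked through models called higher, so their shares are not independent of those calls. Their difference from the models was not tested. One of the 46 splicing genes, Srsf11, hosts a same-strand model, Gm43362. The model was at 6.12, 6.70 and 6.49 CPM in sgElovl1 and 3.49, 1.25 and 2.19 CPM in sgNT libraries (1.48, SE 0.33, edgeR adjusted p = 0.0172, kept in 3 of the 6 fits without a library). Srsf11 itself was at 196, 206 and 217 against 228, 218 and 203 CPM, overlapping between the groups (-0.07, edgeR adjusted p = 0.704). The model was thus higher without a call for its host. Of 10 long non-coding RNAs listed as kept in the nucleus 6 were tested, and 3 rose, Kcnq1ot1 (2.50), Tug1 (0.87) and Lncpint (2.32). Malat1, Neat1 and Gm26917 did not pass (edgeR adjusted p = 0.22, 0.108 and 0.226). Gm26917 varied widely, at 227, 146 and 33.5 CPM in sgElovl1 replicates 1 to 3. Where the reads of these genes come from in the cell was not tested. None of the 1385 genes of the snRNA biotype, which holds the RNA partners of the listed proteins, passed the filter. The libraries were made for messenger RNA, so snRNA levels cannot be judged from them.

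**Figure D5:**
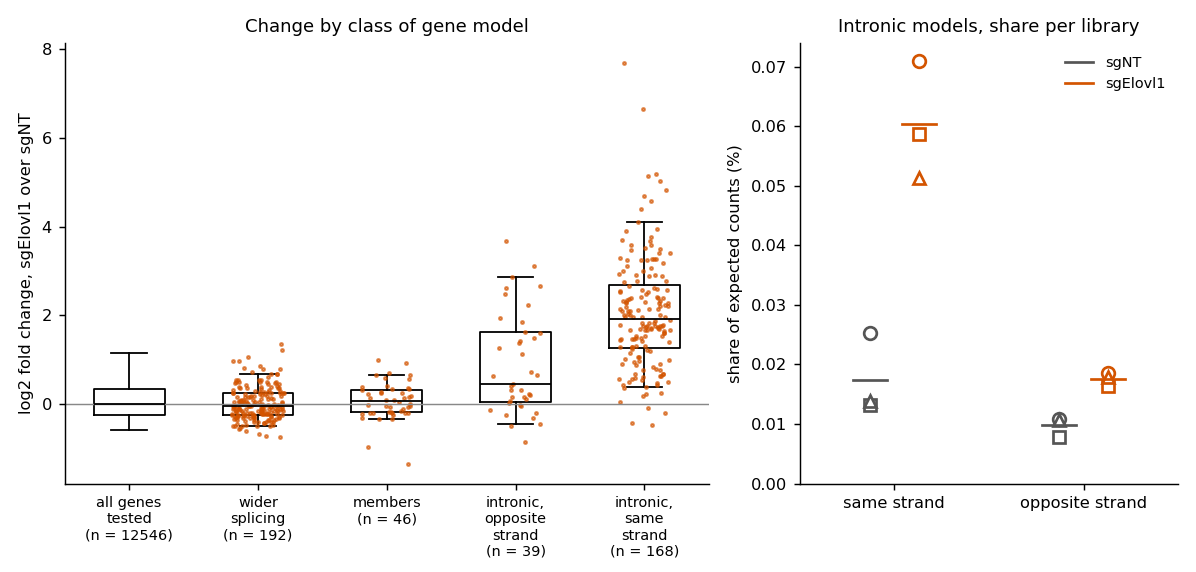
Left, log2 fold change (sgElovl1 over sgNT) of all genes tested, wider splicing genes, the 46 listed genes (members) and intronic gene models on either strand (boxes the quartiles, whiskers the 5th and 95th percentiles, dots single genes). Right, share of expected counts (%) held by intronic models in each library, symbols giving replicates 1 (circle), 2 (square) and 3 (triangle) and lines the means; same-strand models lie at 0.0514% or more in sgElovl1 and 0.0253% or less in sgNT libraries.

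A wider set of 194 splicing genes outside the list, in 12 groups by complex, was read from the same fit. These groups too were chosen with earlier results of these data known, so their shares are descriptive. Of the 192 tested, 26 were higher (13.5%) and 15 lower (7.81%), with a median log2 fold change of -0.05, against 8.64% and 5.13% of all genes. With the replicate block 22 were higher and 13 lower, the 6 lost being Ddx23, Thrap3, Syf2, Slu7, Rbm6 and Ythdc1. In the core machinery, calls went in both directions. Among 24 other Prp19 and catalytic step factors 1 rose, the helicase gene Aqr (0.73), and 4 fell, Ppie (-0.73) and Cwc15 (-0.41) among them (2 with the block). Among 13 other tri-snRNP factors Ddx23 rose (0.87, edgeR adjusted p = 0.0495, and 0.0514 with the block) and Usp39 fell (-0.53), and 11 were below 0 (9 in TPM). Among 16 other U2 factors Ddx42 (0.50) and Cherp (0.50) rose and U2af1l4 (-0.68), a paralogue of the small U2AF subunit, fell. Other U1 factors had no call among 7, with 4 higher and 1 lower at an unadjusted p under 0.05, 1 higher and 1 lower with DESeq2 and 1 higher with limma-voom. Of 10 LSm proteins, which form the ring on U6 RNA and on decaying messages, Lsm7 (0.60) and Lsm5 (0.78) rose.

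Of 15 snRNP assembly factors 14 were below 0, and Phax (-0.50), which exports new snRNAs, and Strap (-0.42), a partner of the SMN complex, fell. Phax was at 49.6, 47.0 and 54.9 against 66.5, 75.1 and 72.3 CPM (edgeR adjusted p = 0.0182). Of 11 minor spliceosome factors 10 were below 0 and 3 fell, Armc7 (-0.50), Zmat5 (-0.41) and Scnm1 (-0.47). In TPM, 12 of 15 and 8 of 11 were below 0 and none of either group was called. None of these 5 genes kept its call when sgElovl1 replicate 1, sgElovl1 replicate 2 or sgNT replicate 2 was left out.

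Of 18 other SR and SR-related proteins 4 rose and 0 fell (3 were lower at an unadjusted p under 0.05, 0 with DESeq2 and 2 without the third libraries), among them Scaf4 (0.98), Rsrp1 (0.98) and Thrap3 (0.38, edgeR adjusted p = 0.0426, and 0.0566 with the block). Rsrp1 was at 901, 1061 and 1189 CPM in sgElovl1 and 730, 388 and 480 CPM in sgNT libraries (edgeR adjusted p = 0.0229, kept in 1 of the 6 fits without a library). Of 7 tested SR protein kinases other than Clk1 and Clk4, Srpk2 (0.43) and Prpf4b (0.48) rose. Of 25 tested other RNA-binding regulators 6 rose, led by Celf1 (0.67), Mbnl1 (0.55) and Qk (0.50), and 0 fell (4 were lower at an unadjusted p under 0.05, and 1 with DESeq2). With the length offset 3 of this group were higher and 3 lower, and without the third libraries 6 and 5. When sgElovl1 replicate 2 or sgNT replicate 2 was left out, this group had 1 or 2 higher calls, and the Prp19, SR and kinase groups above lost all of theirs. Celf1 kept its call in every fit without a library but not with the length offset (edgeR adjusted p = 0.0819). Of 31 hnRNP proteins Hnrnpl (0.69), a regulator of CD45 exons in T cells, was 1 of 3 that rose, and Pcbp2 (-0.50) was 1 of 2 that fell. Hnrnpl was at 127, 121 and 107 CPM in sgElovl1 and 63.9, 67.4 and 89.0 CPM in sgNT libraries (edgeR adjusted p = 0.0128, kept in 2 of the 6 fits without a library).

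Genes of the exon junction complex and of nonsense-mediated decay, which reads splicing history to remove faulty messages, had 5 higher and 2 lower calls among 15 (33.3% and 13.3%, against 8.64% and 5.13% of all genes). With the length offset the counts were 2 and 2, and 2 were higher when sgElovl1 replicate 1, sgElovl1 replicate 2 or sgNT replicate 2 was left out. Smg5, which helps to remove phosphates from Upf1, was at 32.4, 31.8 and 33.0 CPM in sgElovl1 and 19.98, 11.2 and 15.4 CPM in sgNT libraries (log2 fold change 1.06, SE 0.19, edgeR adjusted p = 0.006). It kept its call in every fit without a library and with the length offset. Magohb, a core subunit of the junction complex, was at 28.2, 21.7 and 24.8 against 39.3, 40.2 and 43.9 CPM (-0.72, SE 0.13, edgeR adjusted p = 0.00654).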

How the data were processed

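Sorted OT-I cells of 3 sgElovl1 and 3 sgNT samples, grouped by their titles, were measured by bulk RNA sequencing. The authors pre-amplified RNA with the SMARTer kit, sequenced strand-specific libraries, mapped reads to mm10 with STAR 2.7.7a and quantified genes with RSEM 1.3.1 (DESeq2 1.36.0 for their own tests, not used here). The annotation release and RSEM's strand setting are not given in the sources used here. The deposited tables hold expected counts, estimated per gene and not scaled between libraries, TPM, and gene lengths weighted by isoform share. Of 55471 gene IDs, 55230 matched GENCODE M21, which supplied names and coordinates.

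Expected counts were rounded and tested with edgeR 4.0.16 (R 4.3.3; filterByExpr, minimum count 10, TMM, robust quasi-likelihood fit on group, two-sided, Benjamini-Hochberg over 12546 genes). Log2 fold changes are sgElovl1 over sgNT. Log2 lengths were tested with limma 3.58.1. Both steps were tested on simulated data. The length offset was a lowess trend (span 0.3). Named genes were Elovl1, all called members, the uncalled member of highest TPM in each role, members called in the length test, and the 3 smallest p in each wider list and among intronic models, of which some are not reported here. Members and lists were chosen with earlier results of these data known. Counts of 37 of the 46 genes were whole in all libraries (within 0.005). The other 9 (Prpf31, Sf3a2, Tra2b, Srsf10, Srsf2, Snrpd2, Snrpa, Sf3b4 and Srsf3) shared reads with other loci and are less certain. Libraries of the same replicate number deviated together (correlations of 0.212, 0.245 and 0.405 over genes). Values were also positive for sgElovl1 replicate 1 with sgNT replicate 2 (0.169) and sgElovl1 replicate 2 with sgNT replicate 1 (0.107). Those of replicate 3 with the other replicate numbers were negative. The sample titles state no pairing, so the replicate block was used as an alternative only. Alternatives were DESeq2 1.42.0, limma-voom, DESeq2 size factors, no filter, TPM with pseudocounts of 1 and 0.1, the block, the length offset and leaving out libraries, and, chosen after seeing the data, summed levels in CPM with TMM factors and the macrophage marker sum without its most abundant gene.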

Additional observations from a re-analysis of the deposited data

How the results depend on the processing

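Of 750 values of 50 named genes under the alternatives, 576 stayed on their side of the threshold, 174 crossed it and 0 turned direction with a call. The log2 fold change of the uncalled Srsf7 reached -0.0087 with 1 library left out. Counts of calls moved most with the libraries used. Leaving out 1 library gave 279 to 1414 higher and 42 to 1304 lower of all genes, 2 to 8 and 1 to 3 of the 46, and 3 to 26 and 0 to 28 of the wider genes. It gave 24 to 82 higher same-strand intronic models, 4 to 14 of the sense_intronic biotype (11 with all libraries), and 1 to 22 longer and 1 to 33 shorter genes (16 and 18 with all libraries), 0 to 1 in each direction among the 46. Without the third library of both groups, 1947 genes were higher and 2039 lower, 12 and 7 of the 46, and 44 wider genes were lower. With DESeq2, 1047 genes, 4 of the 46 and 24 wider genes were lower. With TPM, 162 (pseudocount 1) or 177 (0.1) genes and 4 wider genes were lower. With the length offset 721 genes and 16 wider genes were higher. The length test called 8 longer and 8 shorter genes with the effective length and 0 and 0 with the replicate block. The block added Tra2a (adjusted p = 0.00736) and ended no call among the 46, and it ended 6 among the wider genes. The ratio of summed levels turned from 1.16 to 0.995 for Sm proteins and moved from 1.07 to 1.21 for U1 proteins with CPM without TMM factors, turned to 0.928 for Sm proteins in CPM with TMM factors (chosen after the values were seen), and was 0.998 to 1.11 for U2 proteins with 1 library left out (lowest without sgNT replicate 3). The cause of these moves was not tested. The 3 libraries per group limit the precision, and log2 differences near 0.4 passed or failed with single libraries. So did larger ones, such as those of Prpf19 (-0.98) and Snrnp70 (0.65), while Srrm2 (0.92) and Snrpd3 (-1.34) kept their calls.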

Other observations

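Weighted transcript length passed limma's test for 34 genes, none of them among the 46, 16 longer and 18 shorter in sgElovl1, and those named here were chosen after their values were seen. The largest ratios to longer transcripts were those of Chil3 (1.15) and Adgre1 (1.01), which had 0 counts in the sgNT libraries, so that their sgNT lengths (691.33 and 1604.6 bases in each library) do not rest on reads. The largest to shorter transcripts were those of Setd1a (-1.07), at 1.28 to 2.77 CPM, and Helz2 (-1.07), at 4807, 4176 and 4744 bases in sgElovl1 and 9055, 9946 and 9801 bases in sgNT libraries. The hnRNP gene Hnrnpa3 was shorter (-0.16, limma adjusted p = 0.0373) without a call for its level. Elovl1 itself was shorter, at 1242, 1229 and 1245 bases against 1318, 1318 and 1307 bases (-0.09, limma adjusted p = 0.0413).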
